A study of Mus musculus with 168 samples.

Results

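Facial motor neurons were compared between mice with spinal muscular atrophy (SMA) and littermate controls at postnatal day 2, the presymptomatic stage of the study. The samples were taken by their group label, facial nucleus at day 2, with 1 expression value per gene for each mouse: 7 SMA mice and 5 controls. They are 12 of the 160 samples that mouse and neuron population define in the series, from 168 deposited libraries, and the comparison runs over all genes.

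SMA is caused by too little SMN, a protein that loads Sm proteins onto spliceosomal small nuclear RNAs and so helps build the snRNPs that remove introns. The motor neurons of the facial nucleus drive the muscles of the face. Motor neuron populations differ in how readily they are lost in SMA. The protein p53, a transcription factor that responds to DNA damage and other stress by switching on genes of cell cycle arrest and cell death, has been studied in SMA motor neurons.

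The SMA mice were of the delta7 model: mouse Smn absent on both alleles, with the human SMN2 gene and the human SMNΔ7 transgene homozygous. The controls were littermates with both mouse Smn alleles, and they carried the same human transgenes on both chromosomes, so the genotypes differ in the mouse Smn alleles. Loss of Smn was in the germline, hence in every cell of the animal and not only in motor neurons. Per the labels, about 150 cells were laser-captured from Histogene-stained frozen sections into each tube and lysed directly. Libraries were made from polyA RNA with Smart-seq2, which copies whole transcripts into cDNA, and Tn5 tagmentation. All values are RPKM, reads per kilobase of gene and adjusted for the mapped reads of the library. By Xist and Y-linked genes, the controls were 3 males and 2 females and the SMA mice 3 males and 4 females.

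Depth recovered from the table was 6.09 to 7.69 M reads in the controls and 4.63 to 6.88 M in 6 SMA mice, with 1.44 M in SMA mouse 206. Mean depth was 7.00 ± 0.703 M reads (SD, n = 5) in controls and 5.34 ± 1.90 M (SD, n = 7) in SMA mice (2-sided exact permutation p = 0.0379, adjusted p = 0.114 over 3 library measures). Genes above 0 per mouse numbered 14838 to 17914, and the same exact permutation test gave p = 0.934 (adjusted p = 0.934). The top 10 genes of each mouse held 7.44% to 17.8% of its summed RPKM, the highest share again in mouse 206. The library number in each title sorted with genotype: control mice 14, 26 and 28 had lower numbers than any SMA mouse, and control mice 240 and 244 had higher ones. Their meaning is not given, and library number and genotype cannot be told apart, so values against the 3 low-numbered and the 2 high-numbered controls are given beside the called genes and the leading p53 targets. Besides mouse 206, control mouse 14 stood apart: its Hox genes summed to 107.8 RPKM against 0.210 to 19.6 in the other 11 mice, and its markers of inhibitory and monoamine neurons to 22.4 RPKM against 2.01 to 11.4. In mouse 206, red blood cell markers summed to 324.1 RPKM against 6.40 to 93.3 in the others. Its small nucleolar and Cajal body RNA genes, the list that holds Snord13, summed to 1673 RPKM against 232.4 to 521.0 in the others. The part of these differences in the results was not tested, and values without each of the 2 mice are given below.

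Motor neuron identity genes were present at like levels in both genotypes. Isl1, a motor neuron transcription factor, was at 187.6 to 308.6 RPKM in controls and 186.4 to 268.4 in SMA mice. Prph, encoding the intermediate filament peripherin, lay between 1198 and 1556 RPKM in all 12 mice. Hoxc10, a gene of lumbar spinal cord, reached at most 0.399 RPKM in any of the 12 mice against a mean of 90.7 RPKM in the control lumbar motor neurons of the series. Chat, encoding the enzyme that makes acetylcholine, was low for motor neurons, at 4.62 to 18.3 RPKM in controls and 0.834 to 17.8 in SMA mice.

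Mouse Smn1 fell in SMA and was below every control in all 7 SMA mice, the direction the labelled genotypes require. Smn1, at chr13:100124852-100137690 on the plus strand (GRCm38), had 19.7, 22.2, 17.6, 27.8 and 63.3 RPKM in control mice 14, 26, 28, 240 and 244. It was at 0 in 5 of the 7 SMA mice, at 0.998 RPKM in mouse 207 and at 4.24 RPKM in mouse 206, the library of lowest depth. No SMA value reached a control value. The group means were 30.1 and 0.748 RPKM, a 40.3-fold difference; without mouse 206 the SMA mean was 0.166 RPKM. On the log2(RPKM + 1) scale the difference was −4.31 (SE 0.39; limma, adjusted p = 3.35e-07), with −3.89 against low-numbered and −4.94 against high-numbered controls. Where Smn1 was at 0, the floor of 3 reads allowed up to 0.250 RPKM. Reads of the human transgenes could have been placed on mouse Smn1, or the reverse; how such reads were assigned was not tested. The row named SMN2 had 154.5 to 232.1 RPKM (median 183.9) in the controls and 85.5 to 251.5 RPKM (median 137.1) in SMA mice, overlapping ranges with a log2 difference of −0.39 (SE 0.25; adjusted p = 0.664).

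Beside Smn1, 3 of the genes tested passed an adjusted p of 0.05: Cdc16 fell, and Snord13 and Snrpa1 rose in SMA. The 4 genes make up 0.0232% of the 17270 tested. At an unadjusted p under 0.05, 793 genes (4.59%) were higher in SMA and 773 (4.48%) lower, and 51.4% of all genes had an estimate above 0, with a median log2 difference of 0.01. With cells pooled in bulk, fewer cells of a type and less RNA per cell cannot be told apart.

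Cdc16 encodes a subunit of the anaphase-promoting complex, the ubiquitin ligase that ends mitosis and that also acts in neurons after division. The gene lies at chr8:13757676-13781938 on the plus strand. Cdc16 levels in control mice 14, 26, 28, 240 and 244 were 151.2, 53.1, 127.8, 118.4 and 101.8 RPKM. In SMA mice they ran from 25.4 to 55.6 RPKM, with a median of 38.7. Only control mouse 26 lay within the SMA range, just under SMA mouse 209, and the other 4 controls were all above 100 RPKM. Mean Cdc16 was 110.5 ± 36.7 RPKM (SD, n = 5) in controls and 37.1 ± 10.95 (SD, n = 7) in SMA mice, a log2 difference of −1.52 (SE 0.24; adjusted p = 0.00806). Against the low-numbered controls alone it was −1.47 (adjusted p = 0.102) and against the high-numbered ones −1.59 (adjusted p = 0.0210). The adjusted p was 0.0636 without control mouse 28 and 0.0553 without 240, and under 0.05 in the 10 fits that left out any other mouse, among them 0.0328 without mouse 14 and 0.0199 without mouse 206. A fit without the day 5 and day 10 mice gave an adjusted p of 0.311. Other control groups had lower Cdc16: 23.4 to 31.2 RPKM in facial controls at day 5 (n = 4), 27.6 to 31.9 at day 10 (n = 4), 26.0 to 68.8 in ocular motor neurons at day 2 (n = 4) and 21.8 to 64.4 in lumbar ones (n = 4). In hypoglossal motor neurons at day 2, controls spanned 36.1 to 125.5 RPKM (n = 4). The SMA range at facial day 2, 25.4 to 55.6 RPKM, overlapped the range of each of these control groups, and 4 facial day-2 controls were above it. Hypoglossal controls reached the level of the facial day-2 controls. The remaining control groups of the series are not given here.

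Cdc16 was the only called gene of its complex. Of 15 tested genes of the complex and its activators, 5 had an estimate above 0, Cdc16 alone had an unadjusted p under 0.05, and the median log2 difference was −0.29 (−0.06 without mouse 206).

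Snord13 encodes U13, a small nucleolar RNA of the box C/D class that acts on the RNA of the small ribosomal subunit. The gene, at chr8:31149864-31149967 on the minus strand, is a single transcript of 104 bases. The libraries were made from polyA RNA. Whether reads on this and the other small nucleolar RNA genes came from the mature RNA or from other transcripts was not tested.

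Snord13 was at 8.97, 13.3, 3.16, 8.75 and 7.65 RPKM in control mice 14, 26, 28, 240 and 244, which were 6, 10, 2, 7 and 6 reads. SMA mice had 18.2 to 160.4 RPKM (median 58.9), from 12 to 45 reads. Every SMA mouse was above every control, and the lowest SMA value, in mouse 209, came from 12 reads. The highest, in mouse 206, came from 24 reads at the lowest depth. Mean Snord13 was 8.36 ± 3.62 RPKM in controls and 65.6 ± 45.2 in SMA mice, 7.84-fold apart, with a log2 difference of 2.68 (SE 0.48; adjusted p = 0.0408). Against low-numbered controls the estimate was 2.73 (adjusted p = 0.102) and against high-numbered ones 2.61 (adjusted p = 0.262). The estimate stayed between 2.42 and 2.94 when any single mouse was left out, but its adjusted p was under 0.05 in only 3 of those 12 fits (range 0.00717 to 0.120; 0.0517 without mouse 14 and 0.0748 without mouse 206). It was 0.236 with only the 2 groups compared and 0.0622 with all 36 groups of the series in the fit and the mouse as a block.

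Snord13 was the only called small nucleolar RNA. Of the listed small nucleolar and Cajal body RNA genes, 50 passed the filter, 26 with an estimate above 0, and the median was 0.07. At an unadjusted p under 0.05, of the 50, 6 were higher and 3 lower, beside 4.59% and 4.48% over all genes. Among the higher was Snord118, the U8 RNA of large-subunit processing, which was at 0 in the 5 controls and at 24.8, 17.4, 17.9 and 15.2 RPKM in SMA mice 16, 38, 207 and 211, with 0 in the other 3 (2.45, SE 0.86; adjusted p = 0.386). Snord72 and Snord49b also had higher means in SMA, but their groups overlapped (limma, adjusted p = 0.397 and 0.399). Control mouse 14 had 48.0 and 69.1 RPKM and mouse 206 had 343 and 473 RPKM, respectively. Snord118 and Snord110, also among the 6, were at 0 in all controls and could not have an estimate below 0. The 3 lower genes, Snord98, Snora19 and Snord73a, were at 0 in all SMA mice and could not have one above 0. The filter runs over facial samples of all ages, so the counts describe tested genes only.

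Snrpa1 encodes a protein specific to the U2 snRNP, the particle that recognises the branch point of introns. The gene lies at chr7:66059003-66074587 on the plus strand and shares sequence on that strand with the annotated gene Gm45213, whose reads were not separated here. Snrpa1 was at 46.5, 61.5, 46.5, 65.2 and 46.4 RPKM in the 5 controls, in the same order of mice. In SMA mice it was at 79.3 to 170.3 RPKM with a median of 134.8. The groups did not overlap. Mean Snrpa1 was 53.2 ± 9.34 RPKM (SD, n = 5) against 123.5 ± 36.98 (SD, n = 7), a log2 difference of 1.16 (SE 0.22; adjusted p = 0.0486). Against either set of controls alone the estimate was 1.20 (low numbers, adjusted p = 0.102) or 1.09 (high numbers, adjusted p = 0.328). Leaving out single mice gave estimates of 1.07 to 1.25 with an adjusted p under 0.05 in 2 of 12 fits (0.0920 without mouse 14 and 0.0199 without mouse 206). It was 0.371 with only the 2 groups compared.

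**Figure D1:**
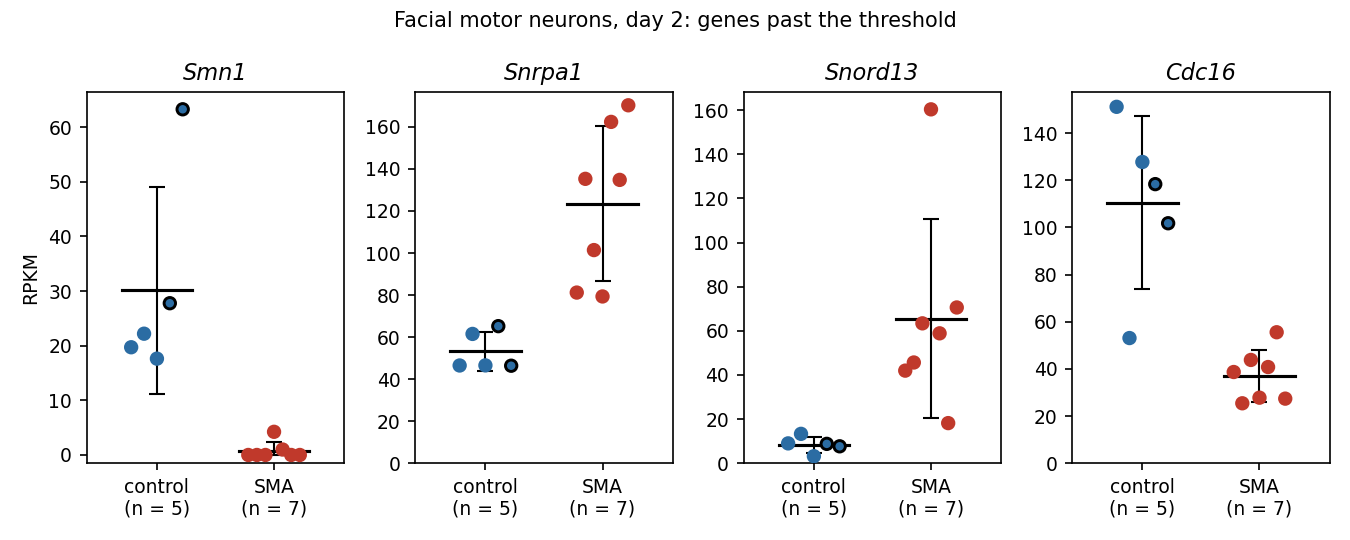
RPKM of Smn1, Cdc16, Snord13 and Snrpa1 in each mouse (points), with the group mean and SD (bars; lower bars end at 0). Control points with a black edge are mice 240 and 244, of high library number. Control mouse 26 alone overlaps the SMA range in Cdc16, and the other 3 genes have no overlap.

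Every SMA mouse was above every control for 44 genes (0.255%) and below every control for 32 (0.185%). They include Smn1, Snord13 and Snrpa1; Fas was next by p, and the rest had an adjusted p of 0.0995 or more.

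**Figure D2:**
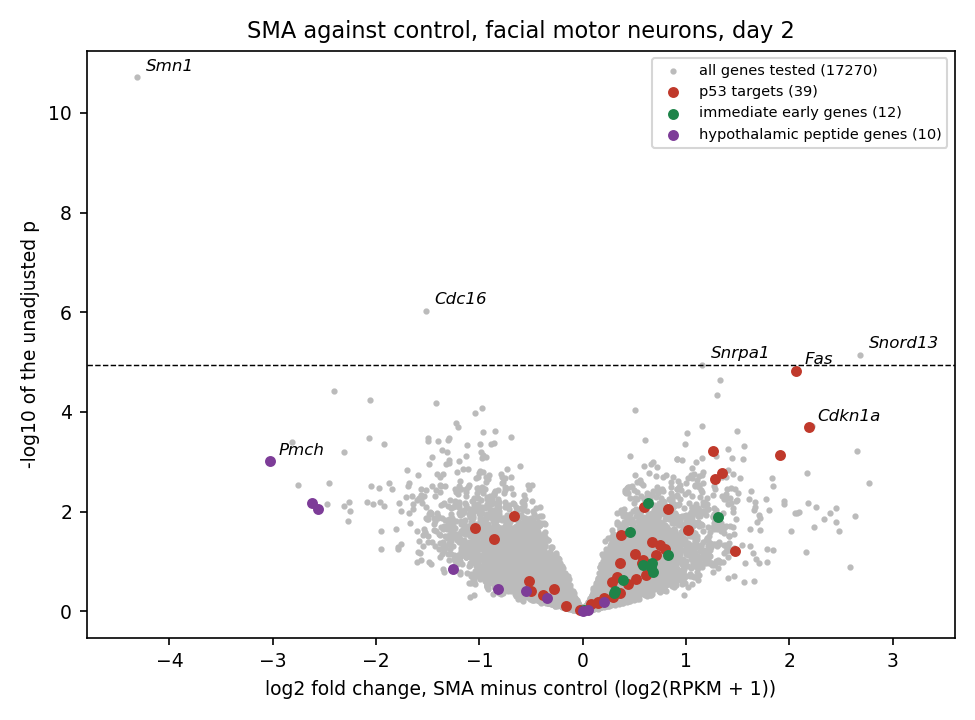
Log2 difference, SMA minus control, on log2(RPKM + 1) (x axis) against −log10 of the unadjusted limma p (y axis) for the genes tested at day 2. Only Smn1, Cdc16, Snord13 and Snrpa1 pass the adjusted threshold, and the cloud has similar numbers on both sides (793 higher and 773 lower at an unadjusted p under 0.05).

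Among non-overlapping genes that were not called and had a mean of at least 5 RPKM in the higher group, the smallest p on the higher side belonged to Pja2, encoding a ubiquitin ligase abundant in neurons. Its control values were 182.4, 150.7, 166.9, 137.6 and 143.3 RPKM, and its SMA values 203.7 to 235.5 RPKM (median 220.9). The gap was narrow but the spread was too, with a log2 difference of 0.50 (SE 0.11; adjusted p = 0.135). Laptm4a, encoding a membrane protein of lysosomes and endosomes, was at 32.04 to 44.8 RPKM in controls and 47.6 to 140.7 in SMA mice (1.01, SE 0.24; adjusted p = 0.205). Eid1, an inhibitor of histone acetyltransferases, was at 91.9 to 165.3 RPKM in controls and 172.4 to 250.5 in SMA mice (0.60, SE 0.15; adjusted p = 0.213).

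Cep41, encoding a protein of centrosomes and cilia, was at most 3.05 RPKM in controls and at 3.98 to 24.0 RPKM in SMA mice (2.21, SE 0.51; adjusted p = 0.192). Zfp87, a zinc finger gene that shares its strand with Gm26965, was at 10.9 to 32.4 RPKM in controls and 42.3 to 76.3 in SMA mice (1.29, SE 0.34; adjusted p = 0.265). The same part of the naming rule gave E130114P18Rik, Gm2000 and Ppp1r3f, with estimates of 1.49, 0.99 and 1.44 and adjusted p of 0.204, 0.213 and 0.265.

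On the lower side, Nmt2, encoding an enzyme that attaches myristate to proteins, was at 47.9, 110.9, 58.0, 65.3 and 49.9 RPKM in controls. SMA mice had 23.65 to 38.95 RPKM (median 29.5), all under the lowest control, with a log2 difference of −1.04 (SE 0.23; adjusted p = 0.138). Cdk9, the kinase of P-TEFb that releases paused RNA polymerase II, was at 20.3, 15.3, 19.4, 10.9 and 21.1 RPKM in controls. It was at 2.06 to 8.64 RPKM (median 5.26) in SMA mice (−1.497, SE 0.37; adjusted p = 0.213). Nvl, an ATPase of large ribosomal subunit assembly, was at 28.6 to 49.8 RPKM in controls and 16.1 to 26.6 in SMA mice (−0.85, SE 0.20; adjusted p = 0.204).

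Nme6, a nucleoside diphosphate kinase family member, was at 19.6 to 36.8 RPKM in controls and 0 to 16.2 in SMA mice (−2.07, SE 0.50; adjusted p = 0.213). Tmem199, whose protein acts in assembly of the vacuolar proton pump, was at 78.1 to 116.5 RPKM in controls and 45.2 to 72.6 in SMA mice (−0.69, SE 0.17; adjusted p = 0.213). Cnnm3, 1110004F10Rik and Ppapdc1b had estimates of −1.30, −0.97 and −1.21 with adjusted p of 0.213, 0.129 and 0.192. None of these 16 genes passed the test. With all 36 groups of the series in the fit and the mouse as a block, 7 of them passed (adjusted p 0.00202 to 0.0392). These were Pja2, Laptm4a, Eid1 and Gm2000 on the higher side and Nmt2, Cnnm3 and 1110004F10Rik on the lower. None of these 7 passed in any of the 12 fits that left out a mouse. With only the 2 groups compared, their limma adjusted p was 0.372 to 0.476. Against low-numbered controls alone E130114P18Rik passed (2.09, adjusted p = 0.0380).

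Of the genes that p53 switches on, none passed the adjusted threshold, but most had an estimate above 0. Of 40 listed p53 targets, 39 passed the filter on low values and 30 of them (76.9%) had an estimate above 0, with a median log2 difference of 0.44 beside 0.01 over all genes. At an unadjusted p under 0.05, 12 (30.8%) were higher and 3 (7.69%) lower, beside 4.59% and 4.48% over all genes. Their summed level was 433 to 465 RPKM in controls and 511 to 583 RPKM in SMA mice, without overlap. Against low-numbered controls the median was 0.36, against high-numbered ones 0.36, and it was 0.37 without mouse 206 and 0.57 without mouse 14. With all 36 groups in the fit and the mouse as a block, Fas, Cdkn1a and Psrc1 passed the adjusted threshold (adjusted p = 0.00111, 0.00117 and 0.00703). With only the 2 groups compared, the limma adjusted p of these 3 genes was 0.0661, 0.476 and 0.595. Cdkn1a and Psrc1 passed in none of the 12 fits that left out a mouse. The filter runs over facial samples of all ages, so a gene can pass through SMA samples alone, and the counts describe tested genes only.

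Fas, the death receptor of the tumour necrosis factor receptor family, lay just above the threshold. It is at chr19:34290666-34327772 on the plus strand. Controls had 0.837, 0, 0, 0 and 0.6245 RPKM, and SMA mice 2.45 to 6.46 RPKM (median 4.49). The groups did not overlap (2.07, SE 0.39; adjusted p = 0.0513, and 0.0452 to 0.148 when single mice were left out), with 2.09 against low-numbered (adjusted p = 0.125) and 2.03 against high-numbered controls (adjusted p = 0.296). Fas was at 0 in all 10 ocular motor neuron samples of day 2. Its genotype difference did not pass the limma test of facial minus ocular at an adjusted p of 0.05.

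Cdkn1a, encoding the cell cycle inhibitor p21, lies at chr17:29090976-29100727 on the plus strand. Control levels were 31.1, 2.24, 8.25, 14.2 and 42.0 RPKM, a wide spread. SMA mice had 41.4 to 134.3 RPKM (median 65.9), and only control mouse 244 exceeded the lowest SMA mouse. The log2 difference was 2.19 (SE 0.51; adjusted p = 0.192), and it was 2.74 against low-numbered (adjusted p = 0.102) but 1.37 against high-numbered controls (adjusted p = 0.552). Psrc1, a gene of spindle microtubules, was at 0 in all 5 controls and above 0 in 6 of 7 SMA mice, up to 13.6 RPKM (adjusted p = 0.265). Ddit4, an inhibitor of mTORC1, was at 2.34 to 6.37 RPKM in controls and 3.74 to 19.0 in SMA mice (1.26, SE 0.33; adjusted p = 0.243).

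Bbc3, encoding the pro-apoptotic protein PUMA, and Btg2, an antiproliferative gene, were picked after their values were seen. Bbc3 was at 0.990 to 6.43 RPKM in controls and 4.25 to 19.5 in SMA mice (1.28, SE 0.38; adjusted p = 0.333). Btg2 was at 1.02 to 9.42 RPKM in controls and 4.33 to 23.0 in SMA mice (1.35, SE 0.39; adjusted p = 0.325). Their groups overlapped.

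Not all p53 targets were on the higher side. Bax, a pore-forming death effector, had an estimate of −0.85 (SE 0.39; adjusted p = 0.520) and Sesn1, a stress-response gene, of −1.05 (SE 0.43; adjusted p = 0.467); both were picked after their values were seen. Trp53 itself was at 10.7 to 17.2 RPKM in controls and 10.5 to 17.5 in SMA mice (−0.10, SE 0.25; adjusted p = 0.939). Of 12 listed genes for p53 and its regulators, 5 had an estimate above 0. Mdm2, whose product degrades p53 and which p53 induces, had 0.59 (SE 0.34; adjusted p = 0.621), and Mdm4 −0.74 (SE 0.35; adjusted p = 0.533).

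Immediate early genes, which neurons switch on within minutes of activity or stress, were also on the higher side. Of 17 listed, 12 passed the filter, and these 12 all had an estimate above 0, with a median of 0.61, beside 51.4% and 0.01 over all genes. Against low-numbered controls the median was 0.60 and against high-numbered ones 0.41. Their summed level was 51.4 to 93.4 RPKM in controls and 98.9 to 158 RPKM in SMA mice. At an unadjusted p under 0.05, 3 (25.0%) were higher, beside 4.59% over all genes; against high-numbered controls there were 0, and none passed adjustment. Dusp1, a phosphatase that turns off MAP kinases, was at 7.42, 0.426, 7.42, 8.54 and 10.2 RPKM in controls and 8.97 to 25.0 in SMA mice (1.31, SE 0.49; adjusted p = 0.409), with 1.77 against low-numbered and 0.62 against high-numbered controls. Jund was at 7.87 to 16.6 RPKM in controls and 13.3 to 28.0 in SMA mice (0.63, SE 0.21), with 0.89 and 0.23 against the 2 sets. Jun was at 25.1 to 53.05 against 44.1 to 71.5 (0.46, SE 0.19; adjusted p = 0.479). Fos, the best-known member, overlapped widely (0.83, SE 0.45; adjusted p = 0.585). Some tested members were low in controls: Arc and Nr4a1 had control means of 0.360 and 0.291 RPKM and SMA means of 1.32 and 1.32. As the filter runs over facial samples of all ages, a gene can pass it through SMA samples alone. Times between death and freezing are not in the labels, so their part was not tested.

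Snrpa1 and Smn1 were the only called genes of snRNP assembly and splicing. Of 12 U2 snRNP proteins, 7 had an estimate above 0 and the median was 0.14; Sf3b4, of the SF3b complex, was at 3.05 to 8.22 RPKM in controls and 4.56 to 15.8 in SMA mice (0.85, SE 0.29; adjusted p = 0.381). Of 9 SMN complex genes, Smn1 alone had an unadjusted p under 0.05, and the median was −0.01. Sm and LSm core proteins (18 genes) had a median of 0.14, proteins of U1, U5 and the tri-snRNP (15 genes) −0.02, and minor spliceosome proteins with Tmem41b (10 genes) 0.29, the last with none at an unadjusted p under 0.05. Usp39, of the tri-snRNP, was at 10.3 to 24.7 RPKM in controls and 22.2 to 39.04 in SMA mice (0.76, SE 0.25; adjusted p = 0.370). U2af1, whose product recognises the 3′ splice site, was picked after its values were seen: it was at 2.35 to 6.46 RPKM in controls and 4.67 to 15.2 in SMA mice (1.33, SE 0.26; adjusted p = 0.0664).

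Histone genes, many of whose mRNAs lack a polyA tail and need U7 snRNP for their 3′ ends, had 19 of 72 members above the filter. Of these, 14 (73.7%) had an estimate above 0, beside 51.4% over all genes, and the median was 0.28. At an unadjusted p under 0.05, 5 (26.3%) were higher and 1 (5.26%) lower, beside 4.59% and 4.48%. Hist1h2aa and Hist1h2ab, among the 5, were at 0 in the controls and had SMA means of 0.780 and 1.11 RPKM. Their estimates could thus not be below 0. The summed level of the listed histone genes overlapped, at 75.8 to 163.7 RPKM in controls and 94.3 to 250.6 in SMA mice. Hist1h1c, a linker histone, was at 0.266 to 4.98 RPKM in controls and 2.35 to 13.1 in SMA mice (1.27, SE 0.45; adjusted p = 0.388).

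Genes of motor neuron function showed no called member. Of 5 cholinergic genes tested, 1 had an estimate above 0 and the median was −0.23; Chat had −0.44 (SE 0.42; adjusted p = 0.795). Motor neuron identity factors (11 tested) had a median of 0.02, and markers of alpha and gamma motor neurons (10 tested) −0.24. Of 11 organizers of the neuromuscular junction, 2 (18.2%) were lower at an unadjusted p under 0.05, beside 4.48% over all genes. The 2 were Agrn, encoding agrin, the nerve-derived protein that clusters acetylcholine receptors, and Calcb, encoding the peptide beta-CGRP. Agrn was at 86.2, 209.1, 99.4, 218.2 and 241.7 RPKM in controls and at 45.7 to 214.9 in SMA mice, of which 6 were under 100 RPKM (−0.94, SE 0.36; adjusted p = 0.414). Calcb was at 239.8 to 756.7 RPKM in controls and 180.6 to 532.9 in SMA mice (−0.62, SE 0.29; adjusted p = 0.527).

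Neurofilament and related genes (7) had a median of 0.11, with Nefl, the light chain, at 2508 to 3453 RPKM in controls and 3172 to 4450 in SMA mice (0.33, SE 0.12; adjusted p = 0.399). Synaptic vesicle genes (20) had a median of 0.04. At an unadjusted p under 0.05, 1 (5.0%) was higher and 1 (5.0%) lower, beside 4.59% and 4.48% over all genes. Genes of the unfolded protein and integrated stress response (18) had a median of 0.06, again with 1 (5.56%) in each direction. Of 16 axon injury and regeneration genes, 3 (18.8%) were higher and 1 (6.25%) lower at an unadjusted p under 0.05, beside 4.59% and 4.48% over all genes. The median was 0.14. Their summed level was 4246 to 4576 RPKM in controls and 4802 to 5094 in SMA mice, without overlap. A few abundant genes weigh most in this sum, among them Stmn2 (means 1342 and 1529 RPKM) and Basp1 (741.7 and 1084 RPKM). Of the 16 genes, 11 had an estimate above 0 and 5 below. The median log2 deviation of the 16 from the control mean overlapped between genotypes. It was −0.229 to 0.177 in control mice and −0.171 to 0.274 in SMA mice. Vgf, a neuropeptide precursor, was at 20.4 to 40.3 RPKM in controls and 35.6 to 139.9 in SMA mice (0.83, SE 0.28; adjusted p = 0.373).

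Of 22 tested genes of inherited motor neuron disease, none was higher and 3 (13.6%) were lower at an unadjusted p under 0.05. Over all genes, 4.59% were higher and 4.48% lower. The median of the list was −0.11. Sod1, the superoxide dismutase mutated in a form of amyotrophic lateral sclerosis, was at 1187 to 2772 RPKM in controls and 775 to 1899 in SMA mice (−0.56, SE 0.21; adjusted p = 0.414). Vrk1, a kinase gene that causes a form of spinal muscular atrophy with pontocerebellar hypoplasia, was at 1.38 to 5.87 RPKM in controls and 0 to 2.19 in SMA mice (−1.11, SE 0.31; adjusted p = 0.324). Exosc8, an RNA exosome gene of the same group of diseases, had −1.13 (SE 0.49; adjusted p = 0.491). Ribosomal protein genes (78) and nuclear genes of oxidative phosphorylation (86) had medians of −0.11 and −0.05. The 6 SMA modifier genes had a median of −0.09, with none at an unadjusted p under 0.05, and the 4 Hox genes above the filter had 0.18.

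**Figure D3:**
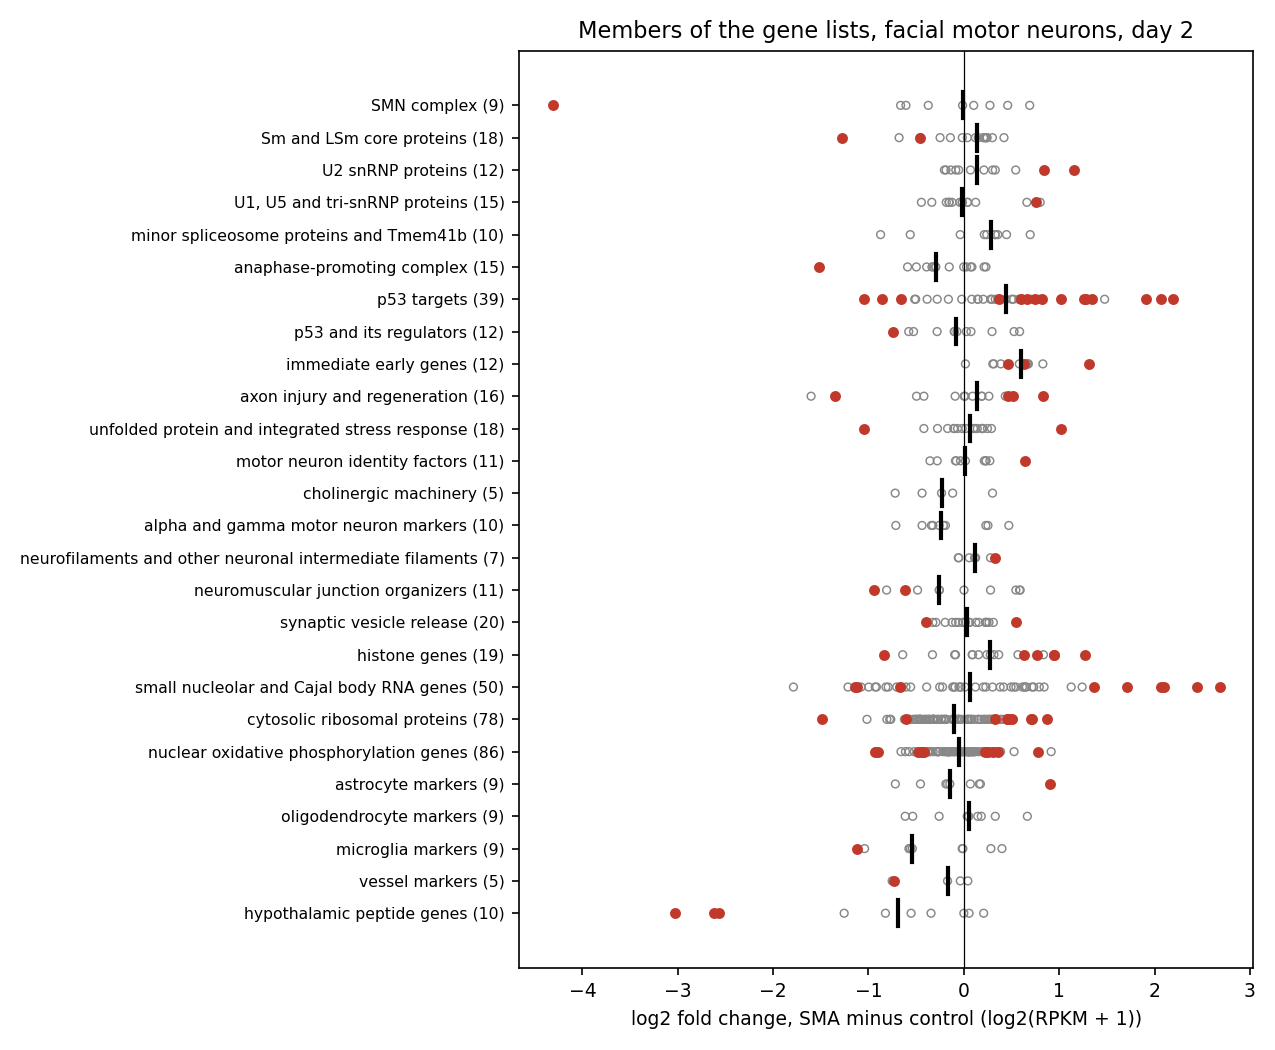
Log2 difference of each tested member (points) of the gene lists shown at day 2, with the number tested in brackets, SMA minus control; red points have an unadjusted p under 0.05 and the black tick is the list's median. The medians of the p53 targets (0.44) and immediate early genes (0.61) lie right of the median over all genes (0.01).

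Markers of other cells were checked in the same way. The summed level of 9 astrocyte markers was 1373 to 1745 RPKM in controls and 1253 to 1685 in SMA mice. That of 9 oligodendrocyte markers was 31.9 to 67.9 and 34.4 to 70.5, so both sums overlapped nearly in full. Aldoc, with means of 1295 and 1171 RPKM, made up most of the astrocyte sum. Of the 9 astrocyte markers, 4 had an estimate above 0 and 5 below. Aqp4 alone had an unadjusted p under 0.05, with means of 3.62 RPKM in controls and 6.64 in SMA mice (0.90, SE 0.34, limma, adjusted p = 0.414). The 9 microglia markers summed to 24.7 to 101.2 RPKM in controls and 10.4 to 65.03 in SMA mice; 7 of 9 had an estimate below 0, and the median was −0.54 against all 5 controls, 0.35 against low-numbered and −1.03 against high-numbered controls. Vessel markers (5 tested) had a median of −0.17, red blood cell markers (4 tested) −0.34 with mouse 206 far above the others, and markers of inhibitory and monoamine neurons (7 tested) 0.06. The part of glial and blood RNA in the gene differences above was not tested.

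Hypothalamic peptide genes, which facial motor neurons are not known for, separated the 2 sets of controls. Pmch, encoding melanin-concentrating hormone, was at 6.44, 0, 0, 74.5 and 62.9 RPKM in control mice 14, 26, 28, 240 and 244 and at 0 in all 7 SMA mice. Avp (vasopressin) and Oxt (oxytocin) were at 0 in the 3 low-numbered controls and all SMA mice, but at 74.6 and 69.5 RPKM in mouse 240 and 113.7 and 101.2 RPKM in mouse 244. Of 10 such genes tested, 8 had an estimate below 0; the median was 0.01 against low-numbered controls and −1.35 against high-numbered ones. The part of this RNA in the other differences was not tested.

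**Figure D4:**
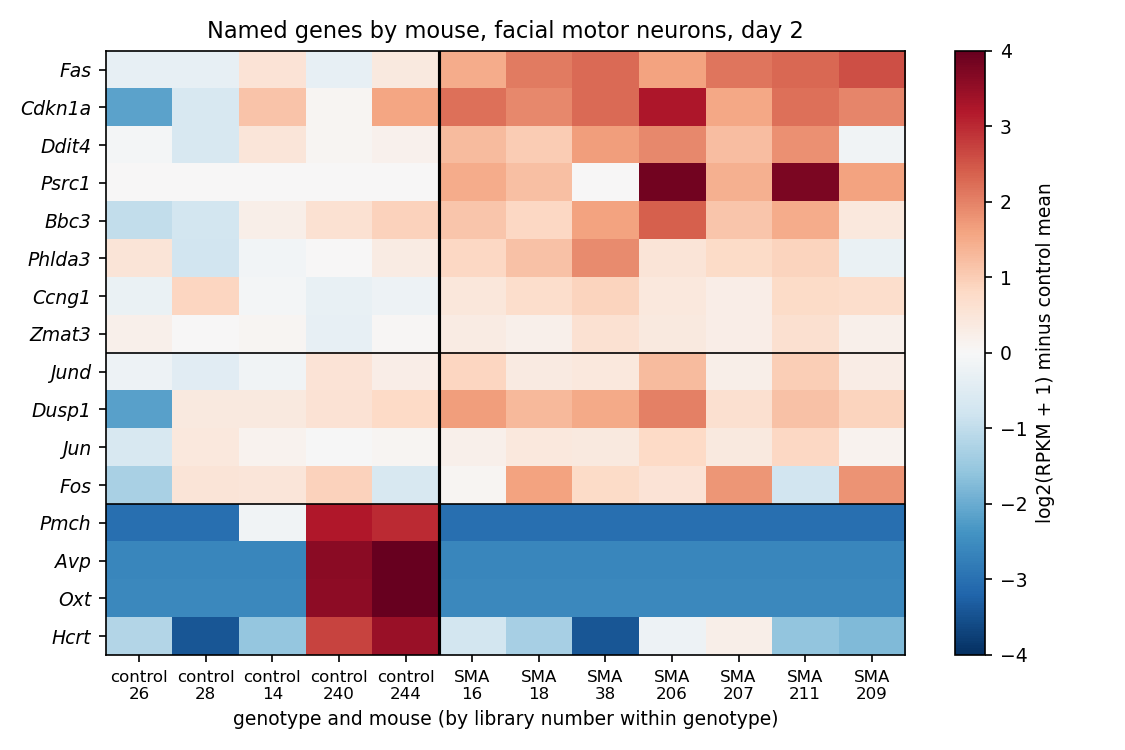
Heat map of 8 p53 targets, 4 immediate early genes and 4 hypothalamic peptide genes (lines part the sets), with a column for each mouse in order of library number within genotype. Colour is log2(RPKM + 1) minus the mean of the 5 controls and is capped at 4 in either direction; Pmch, Avp and Oxt are highest in control mice 240 and 244.

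The called genes were followed to days 5 and 10 in other mice of the same fit (4 controls and 3 SMA mice at day 5, 4 and 4 at day 10). Snrpa1 rose at both ages, by 1.74 (SE 0.28; adjusted p = 0.00471) and 1.41 (SE 0.26; adjusted p = 0.00460), and Snord13 by 4.42 (SE 0.63; adjusted p = 0.000935) and 4.76 (SE 0.58; adjusted p = 1.56e-05). Their genotype differences did not pass the test of a change with age: for Snord13, day 10 minus day 2 was 2.07 (SE 0.76; adjusted p = 0.590). Cdc16 did not keep its direction. Its SMA mean was above the control mean at day 5 (61.7 and 26.6 RPKM; 1.12, adjusted p = 0.489) and at day 10 (45.8 and 30.3 RPKM; 0.52, adjusted p = 0.741). The day-5 difference exceeded the day-2 difference by 2.64 (SE 0.40; adjusted p = 0.00311) and the day-10 difference by 2.04 (SE 0.38; adjusted p = 0.0147).

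At day 10, 97 genes were called higher and 18 lower (0.666% of those tested). In the mice of day 2, the 97 day-10 genes had a median of 0.14; 72 (74.2%) had an estimate above 0, beside 51.4% over all genes. At an unadjusted p under 0.05, 16 (16.5%) were higher and 1 (1.03%) lower, beside 4.59% and 4.48%. In 5 of them every SMA mouse was above every control, beside 0.255% over all genes. Those 5 were Snord13, Snrpa1, Fas, Zfp87 and Trim72. The filter runs over all ages, so genes of the day-10 list can pass it through day-10 SMA samples alone. Some of the 97, such as Cutal, Bglap and Alox5, were at 0 RPKM in all day-2 controls and could not have an estimate below 0. The shares thus describe the tested genes only, and an early rise of the list as a set was not tested. Trim72, a membrane repair gene picked after its values were seen, was at 0.0560 to 0.591 RPKM in day-2 controls and 0.982 to 4.40 in SMA mice (1.30, SE 0.27; adjusted p = 0.0995), and at 18.1 to 20.4 RPKM in SMA mice at day 10 (3.54, adjusted p = 1.02e-07). Cdkn1a, with no call at day 2, rose by 3.85 at day 5 (adjusted p = 0.0101) and by 5.71 at day 10 (adjusted p = 1.77e-06).

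The genotype difference itself changed between day 2 and day 10 for 21 genes (0.122%) and between day 2 and day 5 for 2 (0.0116%), in each case with a higher signed value at the later age; that of Cdc16 went from below 0 to above 0. Most of the 21 were near 0 at day 2. Bglap2, an osteocalcin gene whose reads may be shared with its close copy Bglap, was at most 0.458 RPKM in any day-2 mouse and had a mean of 29.4 RPKM in SMA mice at day 10. Cpne2, a copine gene, was at 7.38 to 15.4 RPKM in day-2 controls and 5.88 to 20.7 in day-2 SMA mice, against means of 3.93 and 57.5 RPKM at day 10. Trp53 was level at day 2 and rose by 1.62 at day 10 (adjusted p = 0.00487).

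**Figure D5:**
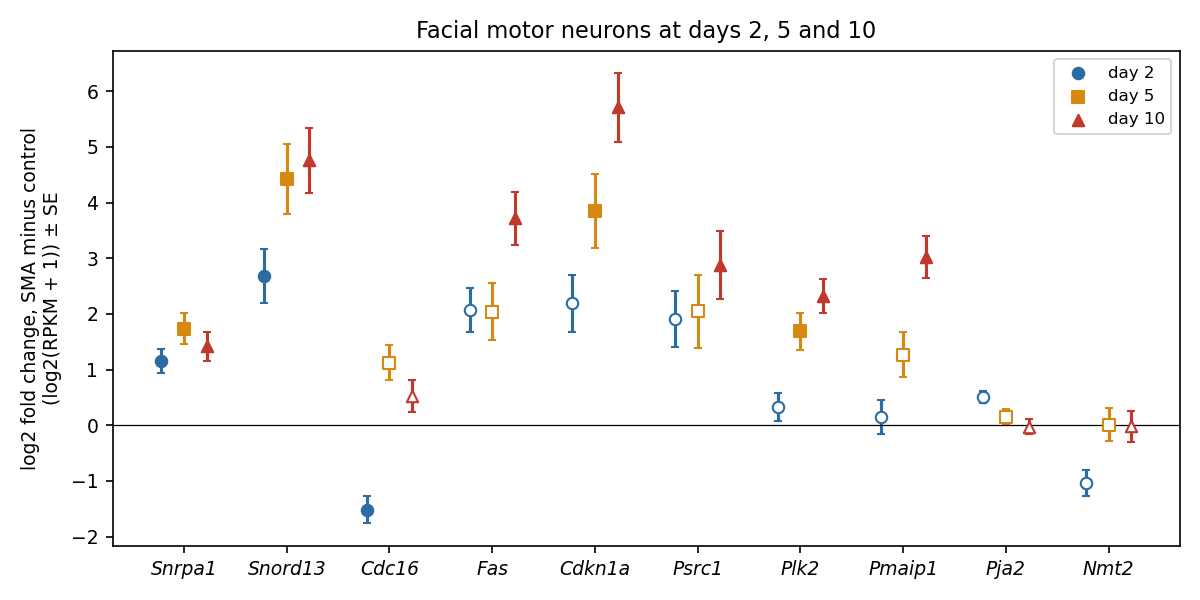
Log2 difference, SMA minus control, in facial motor neurons at days 2, 5 and 10, with SE bars; filled points have an adjusted p under 0.05. Snrpa1 and Snord13 are above 0 at all 3 ages, while Cdc16 is below 0 at day 2 and above 0 at days 5 and 10.

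Ocular motor neurons, which resist SMA, and lumbar motor neurons of day 2 were set beside the facial ones in joint fits. No genotype difference differed at an adjusted p of 0.05 between facial and ocular neurons (0 of 19063 genes, 0.0%; 1741 at an unadjusted p under 0.05) or between facial and lumbar neurons (0 of 19238, 0.0%; 867 at an unadjusted p under 0.05). Only limma was run for these. Snrpa1 rose in ocular (1.37, adjusted p = 0.00477) and lumbar neurons (1.53, adjusted p = 2.93e-05). Cdc16 had estimates of 0.24 (ocular, adjusted p = 0.850) and −0.02 (lumbar, adjusted p = 1.0); facial minus ocular was −1.76 (SE 0.41; adjusted p = 0.128). Snord13 had 1.66 in ocular (adjusted p = 0.360) and 0.49 in lumbar neurons (adjusted p = 1.0), and facial minus lumbar was 2.20 (SE 0.91; adjusted p = 1.0).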

How the data were processed

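Per the submitters' processing notes, STAR 2.4.1c and the builds mm10 and hg19 were used; the read counter and annotation are not given in the sources used here, nor whether counting used strand. The authors deposited RPKM per gene and library (39410 rows, 15986 of them at 0 in all 12 mice). Mice are separate animals, per the labels. The members and gene lists were chosen with earlier results of these data known.

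Log2(RPKM + 1) was fitted with limma 3.58.1 (R 4.3.3; eBayes with trend) for genes with at least 1 RPKM in at least 3 facial samples, over all 27 facial samples as 6 groups, so the groups share an estimate of spread. P-values were 2-sided and Benjamini-Hochberg adjusted within each comparison over all genes tested; 0.05 was the threshold. Fold changes on this scale understate those of low genes. The fit was tested on simulated data.

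Depth came from the whole-read steps of single-transcript genes (GENCODE M21, GRCm38); 68.6% to 71.8% of low values lay within 0.01 of a whole read, so no count test was run. The floor is 3 reads and covers counting error only. Coordinates are from that annotation, matched by symbol (89.5% of rows with a unique position). Sex came from Xist and Y-linked genes.

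Genes were named as follows: Smn1, every gene past the threshold, up to 8 each way that do not overlap between genotypes with a mean of at least 5 RPKM in the higher group, up to 4 per list by p, defining markers, and up to 6 per test of a difference between ages or populations. Alternatives were other pseudocounts, filters, normalizations, limma settings, covariates, sets of controls, and each mouse left out. Same-numbered ocular and lumbar samples come from the same mice, per the labels. Some items are not reported here.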

Additional observations from a re-analysis of the deposited data

Results flagged for a closer look

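Of 50 sets of values checked for a sample far from its group, 6 had one; chance alone gives about 1 in 20. SMA mouse 206 held 4: the lowest depth (1.44 M reads), the highest share of RPKM in 10 genes (17.8%), Smn1 at 4.24 RPKM and Cdkn1a at 134.3 RPKM. SMA mouse 38 held the other 2, Cep41 at 24.0 RPKM and Nme6 at 0.0 RPKM.

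Genotype differences differed between ages by the test of the difference for 21 genes from day 2 to day 10 and 2 from day 2 to day 5, of which 9 results are given here. Day 10 exceeded day 2 on the log2 scale by 4.64 for Bglap2, 3.80 for Cpne2, 2.93 for Tnfrsf26, 3.48 for Gm24517, 3.34 for Ddit4l, 2.86 for Them5 and 2.04 for Cdc16. Day 5 exceeded day 2 by 2.56 for Gm11243 and 2.64 for Cdc16. At day 2, Gm24517 and Them5 were listed at 0 in all 12 mice, and Gm11243 was at 0 in all 7 SMA mice.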

How the results depend on the processing

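The 4 genes called at day 2 became 59 (28 higher, 3 shared with the 4) with all 36 groups in 1 fit and the mouse as a block, 13 (0 higher, 2 shared) against high-numbered controls, 7 with the number of genes above 0 as a term, 2 with no filter on low values, 2 with a pseudocount of 0.1 and 1 with only the 2 groups compared; 8 other settings gave 3 to 6. Leaving out single mice gave 1 to 7: 1 without control 28 or 240 and 7 without SMA mouse 16. Day 10 minus day 2 gave 10 genes with a pseudocount of 0.1 in place of 21. Facial minus ocular gave 0 to 20 genes when single mice were left out, 20 without mouse 28, 17 without 14, 11 without 26 and 5 without 207, and facial minus lumbar 0 to 2, with 2 without mouse 26 or 28. With the mouse as a block, facial minus ocular gave 0 genes (1885 at an unadjusted p under 0.05; correlation within mice 0.0525) and facial minus lumbar 0 (931; 0.0458). The causes were not tested. No single gene reversed: of its values under other settings 1016 kept their side of the threshold, 33 passed it and 36 lost it. Library number and genotype cannot be told apart, and 1.44 M reads limit mouse 206.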

Other observations

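Ribosomal protein genes and nuclear genes of oxidative phosphorylation held members on both sides at day 2; the genes below were picked after their values were seen, and none passed an adjusted p of 0.05. Among ribosomal proteins, Rpl39 had means of 108.0 RPKM in controls and 180.6 in SMA mice (log2 difference 0.71, SE 0.21; limma, adjusted p = 0.325). Rps18 had means of 10.1 and 1.96 RPKM (−1.49, SE 0.41; adjusted p = 0.288). Many ribosomal protein genes have processed copies, and how their reads were divided is not given in the sources used here. Among respiratory chain genes, Ndufb4 had means of 46.7 and 82.4 RPKM (0.77, SE 0.24; adjusted p = 0.340) and Ndufb10, of the same complex, 1196 and 730.4 RPKM (−0.90, SE 0.34; adjusted p = 0.409).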
